A study of Mus musculus with 4 samples.

Results

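The Hippo pathway limits tissue growth by keeping the coactivators YAP and TAZ out of the nucleus. A kinase cassette (MST and LATS kinases with their adaptors) phosphorylates both proteins, and in the nucleus they act by binding TEAD proteins, which contact DNA. Several of their target genes encode proteins that restrain YAP and TAZ, which is a form of feedback. In the developing eye, YAP and TEAD are known for their part in the choice between neural retina and pigment epithelium. The genes described here are the coactivator genes Yap1 and Wwtr1 (which encodes TAZ), the 4 Tead genes, and the junctional and feedback genes Amotl1, Amotl2, Ajuba and Lats2. They were chosen by symbol, and all 10 were found, each once, among the 55426 rows of the expression table.

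The libraries are poly(A)-selected RNA from day 6 mouse retinal organoids, which are stem cell aggregates guided towards retina in culture. Every library came from 1 line, labelled a Mettl3 knockout with the Rx:GFP reporter and a Dox-inducible HA-METTL3, METTL3 being the enzyme that writes N6-methyladenosine on RNA. All were grown in GMEM with KSR (5%), sodium pyruvate, NEAA and β-ME (1% each), and an agent the labels call AGN at 0.1 µM. All carry the same batch label. The 2 untreated libraries received no Dox and the 2 Dox libraries received 2 µg/ml for 6 days. The titles read EV and EV+Dox, and EV is not explained. Nothing in the labels says that replicates came from separate cultures, so p-values measure the spread between these samples.

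Mettl3 was listed at 40.33 and 37.98 FPKM untreated and at 45.2 and 46.37 FPKM with Dox (adjusted p = 0.122 in limma). These levels stand in a line labelled a knockout and did not pass between the groups, and the FPKM values do not separate transcripts of the inducible copy from those of the endogenous gene. Induction of the transgene by Dox is therefore not shown by these data, and the groups are compared as treated and untreated with Dox. FPKM is a fragment count scaled to transcript length and library depth, so levels can be compared between genes. The depth fitted from low values was 31900000 to 34700000 fragments per library. Of the genes that define early retina, Rax was at 1.12 and 0.82 FPKM untreated against 201.14 and 227.98 with Dox, and Six6 was at 0.01 FPKM in both untreated libraries against 79.22 and 92.44 with Dox. These early retinal markers were thus near 0 without Dox, but others of the list were not. Six3 (7.70 and 7.05 FPKM), Lhx2 (26.72 and 24.3) and Hes1 (35.99 and 31.08) were present in the untreated libraries and rose with Dox. Pax6, at 127.76 and 118.86 FPKM untreated against 122.8 and 130.69 with Dox, and Sfrp1, at 83.39 and 79.62 against 77.54 and 81.64, overlapped between the groups. Of 8 neuron markers 6 were tested, and all 6 fell. In bulk RNA, fewer cells of a type and less RNA per cell cannot be told apart.

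No member passed the test between the groups. Log2(FPKM + 1) was compared in limma, with Benjamini-Hochberg adjustment over the 13931 genes whose mean reached 1 FPKM, and 0 of the 9 tested members passed an adjusted p of 0.05. Among all tested genes 9.31% passed. At an unadjusted p below 0.05 there were 4 members, Tead2, Amotl1 and Amotl2 higher and Wwtr1 lower with Dox, where 23.9% of all tested genes reached that level. For 6 of the 9, every Dox library lay on one side of every untreated library, against 53.4% of all tested genes. The median log2 fold change of the 9 was 0.18, and it was -0.0042 over all tested genes.

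One later setting changed this count. It was chosen after the data were seen, because the difference between the Dox replicates followed transcript length across genes (Spearman's rho 0.444, genes not being independent replicates). The log2 fold change between the groups followed length far less (rho 0.0576). All 9 tested members were higher in Dox replicate 2 than in Dox replicate 1, against 55.5% of all tested genes, and 7 of the 9 were higher in untreated replicate 1 than in replicate 2, against 51.6% of all tested genes. The longest transcripts of the members span 3076 to 9964 nt, above the median of 3010 nt of the tested genes. With each library's trend with length and GC content removed, Tead2 (adjusted p = 0.0356), Amotl1 (0.0421) and Amotl2 (0.0159) passed in limma. Their log2 fold changes hardly moved, from 0.285, 0.279 and 0.338 before removal to 0.280, 0.284 and 0.343 after it. The fit after removal called 13.2% of all tested genes.

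**Figure D1:**
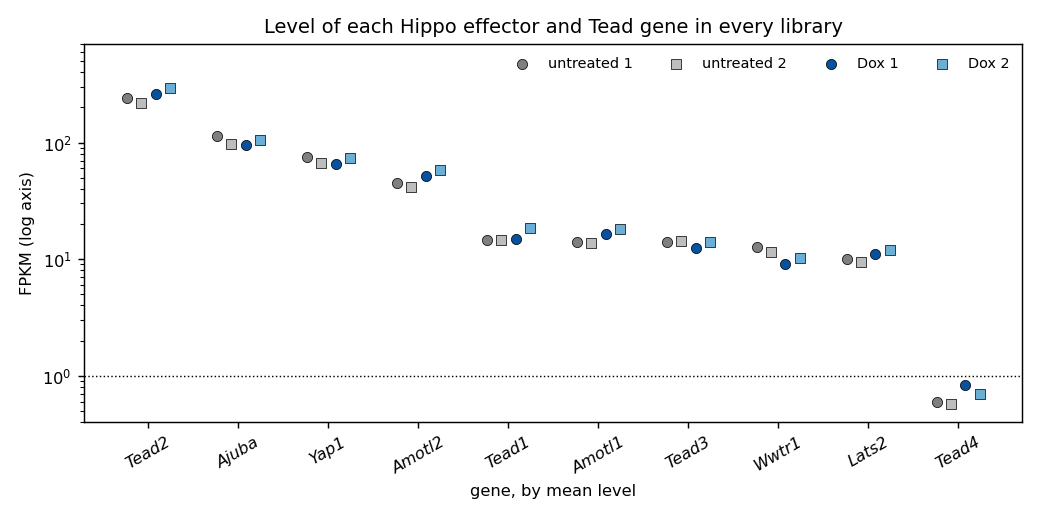
FPKM of the 10 members (log axis) in the 2 untreated and 2 Dox libraries, genes ordered by mean level, with a dotted line at 1 FPKM. Tead2 stands highest in all 4 libraries (218.26 to 296.33 FPKM) and Tead4 lies under the line in all 4.

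Because TEAD proteins bind a short DNA motif, the promoters of the members were searched for it. The motif searched was GGAATG, also as CATTCC on the other strand, in windows from 250 bases before to 50 after each transcript start (RefSeq, GRCm38.p6). Windows were found for 8 of the 10 members: Yap1, Wwtr1, Tead2, Tead3, Amotl1, Amotl2, Ajuba and Lats2. At least 1 window of 6 of these 8 genes held a match, and 8 of their 12 windows did, where 14.7% of all 32851 windows hold one. Windows of the same gene can overlap, and the single match of Wwtr1 lies in both of its windows, so window counts are not independent. Counted by gene, 16.6% of all genes have a match in any window. The windows of Tead2 and Amotl1 had none, which says only that these letters are not there. A match describes the sequence and is not a measured binding site.

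The matches are given with 10 bases on each side, on the strand of the gene, 5′ to 3′, with the motif in capitals. They are printed because genes with the motif include both Amotl2, at higher values with Dox, and Wwtr1, at lower ones. Of 4 matches in windows of Tead3, 2 are given. Each position is that of the printed stretch, and the distance is that of the first motif base from the transcript start.
Yap1, chr9:8004722-8004747, minus strand, 141 bases upstream: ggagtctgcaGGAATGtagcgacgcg
Wwtr1, chr3:57576031-57576056, minus strand, 136 bases upstream: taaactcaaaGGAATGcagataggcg
Tead3, chr17:28350972-28350997, minus strand, 182 bases upstream: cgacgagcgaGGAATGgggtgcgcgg
Tead3 from another start, chr17:28350583-28350608, minus strand, 3 bases downstream: gtaagcccggGGAATGcaactcggag
Amotl2, chr9:102717729-102717754, plus strand, 65 bases upstream: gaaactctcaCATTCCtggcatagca
Ajuba, chr14:54577832-54577857, minus strand, 186 bases upstream: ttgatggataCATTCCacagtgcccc
Ajuba, chr14:54577810-54577835, minus strand, 164 bases upstream: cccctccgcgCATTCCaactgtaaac
Lats2, chr14:57746104-57746129, minus strand, 5 bases downstream: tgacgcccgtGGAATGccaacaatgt
The windows of Ccn1 and Ankrd1, which are widely used target genes, also held matches. Those of Igfbp3 and Tgfb2, targets described with the results, held none, and neither did those of the pathway genes Wwc1, Fat4 and Crb2. No window was found for the targets Ccn2 and Nuak2, also described with the results, so their promoters were not searched.
Ccn1, chr3:145650073-145650098, minus strand, 103 bases upstream: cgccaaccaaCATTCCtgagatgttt
Ankrd1, chr19:36120039-36120064, minus strand, 210 bases upstream: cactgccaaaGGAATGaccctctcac
Ankrd1, chr19:36119952-36119977, minus strand, 123 bases upstream: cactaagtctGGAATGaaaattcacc

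Yap1 encodes the coactivator YAP (ENSMUSG00000053110, chr9:7931999-8004596, GRCm38). It was listed at 75.31 and 66.68 FPKM untreated and at 64.84 and 72.91 FPKM with Dox. The groups overlapped, and the means of 71.0 ± 6.10 and 68.9 ± 5.71 FPKM (SD, n = 2 each) differed by less than the replicates did. The log2 fold change was -0.04, with a 95% interval of -0.28 to 0.19 (adjusted p = 0.832 in limma). Its sign turned when untreated replicate 1 (0.044) or Dox replicate 1 (0.040) was left out. About 10425 to 12270 fragments lie behind each value, so that depth limits it little.

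Wwtr1 encodes TAZ, the paralog of YAP (ENSMUSG00000027803, chr3:57455649-57575910). It stood at 12.62 and 11.52 FPKM untreated and at 9.07 and 10.17 FPKM with Dox, both Dox libraries below both untreated ones. The mean was 12.1 ± 0.778 against 9.62 ± 0.778 FPKM (SD, n = 2 each), a ratio of 0.797. The log2 fold change of -0.30 (SE 0.0995, 95% interval -0.55 to -0.05) did not pass after adjustment (adjusted p = 0.144 in limma). Of the 4 members past the unadjusted threshold in limma, Wwtr1 alone was lower with Dox. Within each library Yap1 exceeded Wwtr1 by 5.97 and 5.79 times untreated and by 7.15 and 7.17 times with Dox. These ratios do not overlap between the groups, but they were formed after the values were seen and carry no test. The sum of both coactivator genes did overlap, at 78.20 to 87.93 FPKM untreated and 73.91 to 83.08 FPKM with Dox.

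The Tead genes encode the DNA-binding partners, and Tead2 made up most of their transcripts. Tead2, known for its expression in the early neural plate (ENSMUSG00000030796, chr7:45215753-45233644), was listed at 239.18 and 218.26 FPKM untreated and at 261.91 and 296.33 FPKM with Dox. Both Dox libraries were above both untreated ones. The mean went from 229.0 ± 14.8 to 279.0 ± 24.3 FPKM (SD, n = 2 each). That is a log2 difference of 0.28 (SE 0.0929, 95% interval 0.05 to 0.52) that did not pass after adjustment (adjusted p = 0.138 in limma). Its level exceeded that of 96.7% of the tested genes. Exons of Cd37 overlap Tead2 on the opposite strand, and Cd37 was listed at 0.19 to 0.4 FPKM.

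The other Tead genes were far lower. Tead1 (ENSMUSG00000055320, chr7:112679318-112906807) stood at 14.64 and 14.66 FPKM untreated and at 14.99 and 18.59 FPKM with Dox. Its 2 Dox libraries were 3.6 FPKM apart and its untreated libraries nearly equal, so that the log2 fold change of 0.18 (95% interval -0.11 to 0.47, adjusted p = 0.421 in limma) rests on Dox replicate 2, and was 0.031 without it. Tead3 (ENSMUSG00000002249, chr17:28331671-28350817) stood at 13.93 and 14.31 FPKM untreated and at 12.56 and 14.02 FPKM with Dox, with overlapping groups. Its log2 fold change was -0.08 (95% interval -0.31 to 0.14, adjusted p = 0.631 in limma), and -0.0095 without Dox replicate 1.

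Tead4, known for its part in the trophectoderm (ENSMUSG00000030353, chr6:128224288-128300823), was listed at 0.59 and 0.57 FPKM untreated and at 0.83 and 0.70 FPKM with Dox. That is about 54 to 75 fragments per library, and the gene fell under the filter on low values. Fitted without the filter it had a log2 difference of 0.16 (limma adjusted p = 0.412). The Dox libraries were above the untreated ones, yet the difference did not pass.

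The summed Tead transcripts stood higher in both Dox libraries, and Tead2 dominated the sum in all libraries. The 4 genes summed to 268.34 and 247.80 FPKM untreated and to 290.29 and 329.64 FPKM with Dox. Tead2 held 89.1% and 88.1% of that sum untreated and 90.2% and 89.9% with Dox. Tead3 held 5.19% and 5.77% untreated and 4.33% and 4.25% with Dox, also without overlap. The shares of Tead1 (5.16% to 5.92%) and Tead4 (0.212% to 0.286%) overlapped between the groups.

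The ratio of Tead to coactivator transcripts did not overlap between the groups. Summed Tead FPKM was 3.05 and 3.17 times the sum of Yap1 and Wwtr1 untreated and 3.93 and 3.97 times with Dox. The means were 3.11 ± 0.0849 and 3.95 ± 0.0283 (SD, n = 2 each). Tead2 alone was 19.0 and 18.9 times Wwtr1 untreated and 28.9 and 29.1 times with Dox. Against Yap1 it was 3.18 and 3.27 times untreated and 4.04 and 4.06 times with Dox. A ratio within a library shows unequal change and not which gene changed. All ratios between genes given here were formed after the values were seen and carry no test. No background over other gene pairs is given for them. The smallest two-sided exact permutation p that 2 libraries against 2 allow is 0.333.

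**Figure D2:**
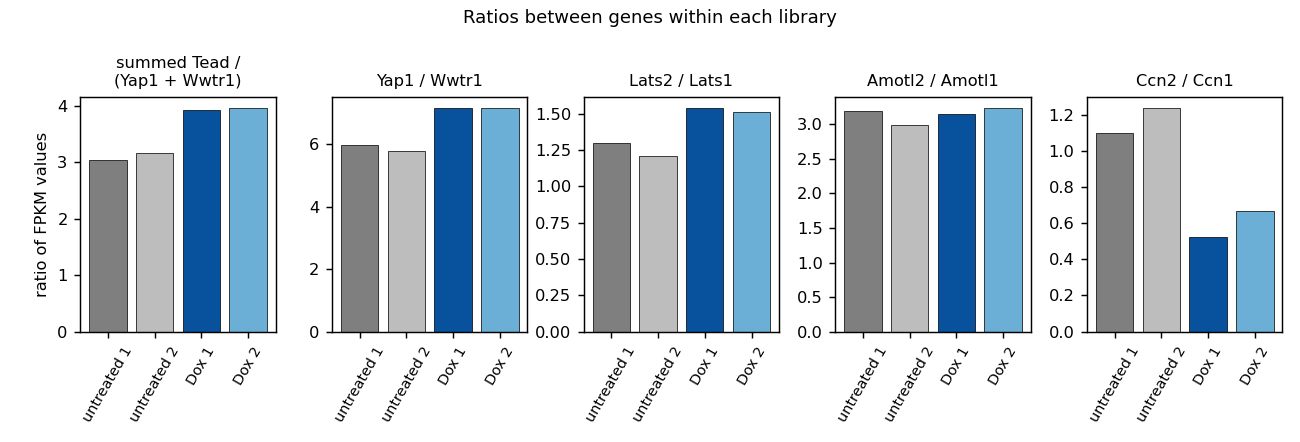
Ratios of FPKM values between pairs of genes or sums within each of the 4 libraries, 1 bar per library, every axis from 0. The ratios were formed after the values were seen and carry no test. The groups do not overlap for summed Tead over coactivators (3.05 and 3.17 against 3.93 and 3.97), for Yap1 over Wwtr1, for Lats2 over Lats1 and for Ccn2 over Ccn1, and they overlap for Amotl2 over Amotl1.

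The angiomotin-like genes encode junctional scaffolds that hold YAP and TAZ in the cytoplasm, and Amotl2 is a known YAP target. Amotl2 (ENSMUSG00000032531, chr9:102716672-102733418) was listed at 45.01 and 41.26 FPKM untreated and at 51.41 and 58.26 FPKM with Dox. Its mean went from 43.1 ± 2.65 to 54.8 ± 4.84 FPKM (SD, n = 2 each), the member with the highest log2 fold change at 0.34 (SE 0.0894, 95% interval 0.11 to 0.56) and the lowest adjusted p (0.0853 in limma). Amotl1 (ENSMUSG00000013076, chr9:14541966-14645056) stood at 14.08 and 13.80 FPKM untreated and at 16.30 and 17.98 FPKM with Dox. Its log2 fold change was 0.28 (SE 0.0847, 95% interval 0.07 to 0.49, adjusted p = 0.118 in limma). In both genes each Dox library lay above each untreated one. Amotl2 stayed about 3 times as abundant as Amotl1, at 2.99 to 3.20 times untreated and 3.15 to 3.24 times with Dox.

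Ajuba encodes a LIM protein that binds and restrains the LATS kinases (ENSMUSG00000022178, chr14:54567472-54577558). It was the second most abundant member, at 113.38 and 96.96 FPKM untreated and at 95.82 and 105.59 FPKM with Dox. The groups overlapped, with a log2 fold change of -0.06 (95% interval -0.31 to 0.19, adjusted p = 0.773 in limma), and the sign turned without untreated replicate 1 (0.053) or Dox replicate 1 (0.010). Lats2, which encodes one of the LATS kinases and is a known YAP target (ENSMUSG00000021959, chr14:57689662-57758388), stood at 10.01 and 9.52 FPKM untreated and at 10.98 and 11.89 FPKM with Dox. Its log2 fold change was 0.21 (95% interval -0.02 to 0.43, adjusted p = 0.237 in limma) with both Dox libraries above both untreated ones. Lats2 was 1.30 and 1.21 times its paralog Lats1 untreated and 1.54 and 1.51 times with Dox. Exons of Gm49361 overlap Lats2 on the same strand, and Gm49361 was listed at 0 to 0.15 FPKM.

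The upstream sequences of Amotl2 and Ajuba are printed because both hold the motif and their log2 fold changes differ. Amotl2 was the tested member with the highest log2 fold change, while Ajuba overlapped between the groups. Each covers the 250 bases before the transcript start, 5′ to 3′ on the strand of the gene, with the motif in capitals (RefSeq, GRCm38.p6). The stretch of Amotl2 is chr9:102717554-102717803 on the plus strand, and that of Ajuba is chr14:54577662-54577911 on the minus strand.
Amotl2: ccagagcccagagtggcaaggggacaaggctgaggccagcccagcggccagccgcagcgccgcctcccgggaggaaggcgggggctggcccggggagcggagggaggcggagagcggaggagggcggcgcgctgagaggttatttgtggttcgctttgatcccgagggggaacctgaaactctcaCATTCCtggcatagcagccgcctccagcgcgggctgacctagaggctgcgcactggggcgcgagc
Ajuba: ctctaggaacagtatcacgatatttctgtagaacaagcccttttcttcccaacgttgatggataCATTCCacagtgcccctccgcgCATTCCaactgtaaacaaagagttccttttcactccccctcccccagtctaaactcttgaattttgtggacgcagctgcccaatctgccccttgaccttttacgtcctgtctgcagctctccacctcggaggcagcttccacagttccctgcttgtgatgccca

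In the order of levels, Tead2, Ajuba, Yap1 and Amotl2 came first in both groups, each above the next in every library of the group. Below them lay 5 genes between 9.07 and 18.59 FPKM. Untreated, Tead3 and Amotl1 could not be ordered beyond their spread, and with Dox Amotl1 and Tead1 could not. Wwtr1 stood above Lats2 in both untreated libraries and below it in both Dox libraries. Tead4 was last throughout.

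**Figure D3:**
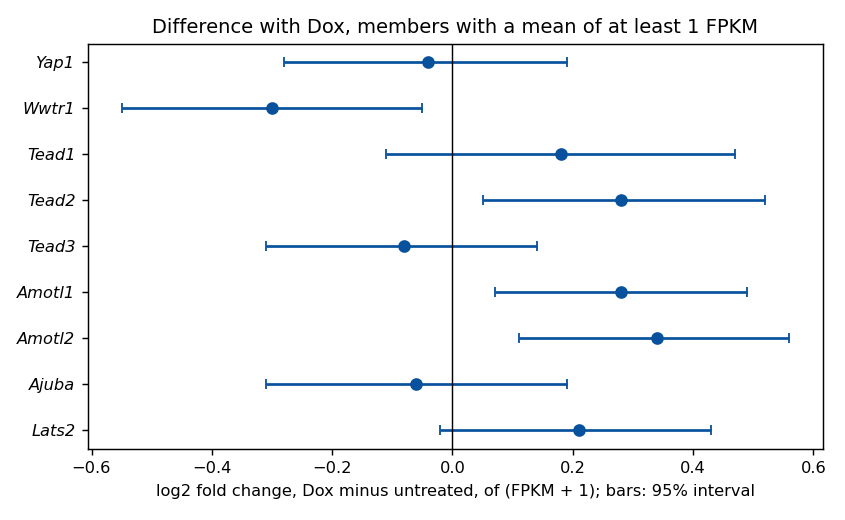
Log2 fold change of each tested member, Dox minus untreated, on the log2(FPKM + 1) scale, with points for the estimate and bars for the 95% interval from limma. The intervals of Wwtr1, Tead2, Amotl1 and Amotl2 exclude 0 before adjustment, and no member passed after it.

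Of the genes upstream of YAP, few passed the test. Of the 18 genes of the core kinase list, all tested, 0 were higher and 1 lower with Dox past the threshold, where 4.44% and 4.87% of all tested genes were higher and lower. The list had a median log2 fold change of 0.031. The one called gene was Wwc1, which encodes the KIBRA adaptor that activates the LATS kinases. It fell from 23.23 and 19.93 FPKM to 10.28 and 10.49 FPKM, a log2 difference of -0.98 ± 0.0984 (SE; limma adjusted p = 0.00328). Its paralog Wwc2 stood at 14.23 and 12.07 FPKM untreated and 15.92 and 18.45 FPKM with Dox (adjusted p = 0.135 in limma). Wwc2 was therefore listed below Wwc1 in both untreated libraries and above it in both Dox libraries, a comparison chosen after the values were seen.

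The kinases and adaptors that define the cassette did not pass. The MST kinase genes Stk3 and Stk4 had log2 fold changes of 0.21 (95% interval -0.05 to 0.47) and 0.01 (-0.21 to 0.24). For the scaffold Sav1 it was 0.01 (-0.27 to 0.28), for Lats1 -0.04 (-0.28 to 0.19), and for Nf2, the merlin gene, -0.08 (-0.34 to 0.17). The LATS coactivator genes Mob1a and Mob1b had 0.08 (-0.08 to 0.25) and -0.15 (-0.44 to 0.14). The adjusted p-values of these 7 genes in limma ran from 0.296 to 0.967. The intervals leave room for changes of up to about 0.47 on the log2 scale.

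Among 25 junction and polarity genes, 24 were tested, with 0 higher, 2 lower and a median log2 fold change of -0.087. Over both directions 9.31% of all tested genes were called, so that 2 of 24 is near the background. Fat4, a giant cadherin that acts upstream of the pathway, fell from 2.96 and 2.61 FPKM to 0.77 and 0.92 FPKM, a log2 difference of -1.04 ± 0.133 (SE; limma adjusted p = 0.00814). Without Dox replicate 1 its adjusted p was 0.0587. Crb2, an apical polarity gene, fell from 16.9 and 18.27 FPKM to 7.93 and 10.65 FPKM, a log2 difference of -0.86 ± 0.143 (SE; limma adjusted p = 0.0201). Leaving out untreated replicate 1, untreated replicate 2 or Dox replicate 1 ended that call (adjusted p = 0.0893, 0.122 and 0.061 in limma), as did testing without the filter, for Fat4 too. Exons of Dennd1a overlap Crb2 on the opposite strand, at 8.22 to 14.67 FPKM.

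Fat4 works with Dchs1, its cadherin ligand, and with Fjx1, a kinase that modifies both. Both were picked out with their values known, and Fjx1 belongs to the target list. Dchs1 stood at 5.9 and 4.59 FPKM untreated and at 7.37 and 10.23 FPKM with Dox, opposite to Fat4, and did not pass (log2 fold change 0.64, adjusted p = 0.0998 in limma). Fjx1 stood at 8.69 and 7.42 FPKM untreated and at 5.53 and 5.77 FPKM with Dox (log2 fold change -0.44, adjusted p = 0.0735). Dchs1 was listed at 1.99 and 1.76 times Fat4 untreated and at 9.57 and 11.1 times with Dox.

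In the list of turnover genes and cofactors (14-3-3 proteins, phosphatase subunits, Vgll genes and others), 20 of 23 genes were tested. With limma 0 were called in either direction, an unadjusted p below 0.05 was reached by 2 higher and 2 lower genes (23.9% of all tested genes reached it), and the median log2 fold change was 0.046.

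The target genes went both ways. Of 25 widely used YAP and TEAD targets, 19 were tested, 1 was higher and 3 were lower with Dox past the threshold, against 4.44% higher and 4.87% lower among all tested genes. The median log2 fold change of the list was 0.020. The list includes Amotl1, Amotl2, Ajuba and Lats2. Without these the counts were again 1 and 3, of 15 tested genes, with a median of -0.015.

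Ccn2, the connective tissue growth factor gene, fell from 43.88 and 45.84 FPKM to 21.25 and 22.19 FPKM, a log2 difference of -1.01 ± 0.0695 (SE; limma adjusted p = 8.96e-04). Its close relative Ccn1 did not pass, at 39.76 and 36.96 FPKM untreated and 40.43 and 33.33 FPKM with Dox (log2 fold change -0.06, 95% interval -0.33 to 0.21, adjusted p = 0.785). Ccn2 was listed at 1.10 and 1.24 times Ccn1 untreated and at 0.526 and 0.666 times with Dox. Both are standard readouts of YAP, and here Ccn2 fell while Ccn1 overlapped between the groups. Ankrd1, the third such readout, was listed at 0.33 and 0.36 FPKM untreated and at 0.30 and 0.17 FPKM with Dox. That is about 10 to 22 fragments, under the filter, and it was not tested.

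Nuak2, which encodes an AMPK-related kinase, fell from 37.05 and 34.34 FPKM to 16.75 and 16.37 FPKM, a log2 difference of -1.06 (limma adjusted p = 9.82e-04). Igfbp3, which encodes a binding protein of insulin-like growth factors, fell from 7.62 and 6.73 FPKM to 2.01 and 2.06 FPKM, a log2 difference of -1.43 (limma adjusted p = 0.00145). Tgfb2, which encodes a TGF-beta ligand, rose from 1.64 and 1.58 FPKM to 7.82 and 7.92 FPKM, a log2 difference of 1.76 (limma adjusted p = 5.54e-04). These 3 genes and Ccn2 were also called in each fit that left out 1 library.

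**Figure D4:**
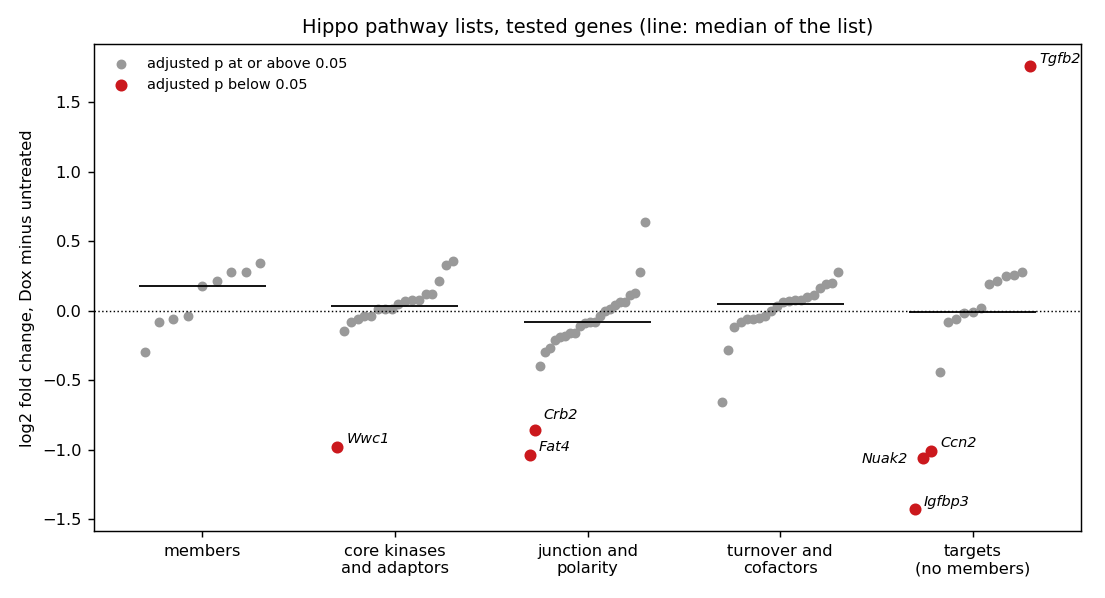
Log2 fold change, Dox minus untreated, of every tested gene in the members and in 4 pathway lists, 1 point per gene, red where the adjusted p in limma was below 0.05 and with a line at each median. The members lie between -0.30 and 0.34, and the named red points are Wwc1, Fat4, Crb2, Igfbp3, Nuak2, Ccn2 and Tgfb2.

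Markers of other cell types moved between the same groups, and their part in these results was not tested. Pigment epithelium is a tissue with known YAP activity. Of its 9 markers, 4 were tested, and Mitf, Dct and Pmel rose while Otx2 fell. Mitf went from 0.93 and 0.97 FPKM to 12.78 and 12.71 FPKM, and Pmel from 1.2 FPKM in both untreated libraries to 39.27 and 39.93 FPKM. Otx2, which is also expressed outside pigment epithelium, fell from 173.12 and 172.52 FPKM to 137.05 and 131.35 FPKM. The list, mostly Otx2, summed to 175.3 to 175.6 FPKM untreated and 193.6 to 199.3 FPKM with Dox. The maturation markers Rpe65, Best1 and Ttr did not exceed 0.72 FPKM in any library.

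Neuron markers, mostly Tubb3 (75.76 to 118.53 FPKM over the 4 libraries), summed to 149.8 to 153.0 FPKM untreated and 83.08 to 87.12 FPKM with Dox. The untested neuron marker Dcx went from 1.19 and 1.25 FPKM to 0.13 and 0.11 FPKM. Isl1, also untested, overlapped between the groups, at 0.85 and 0.90 FPKM untreated and 0.88 and 1.07 FPKM with Dox. Of 8 mesenchyme markers 6 were tested and 2 rose past the threshold. At an unadjusted p below 0.05 in limma, 3 were higher and 1 was lower. Col1a2 rose from 2.46 and 1.93 FPKM to 12.21 and 12.02 FPKM, and Pdgfra from 1.00 and 1.20 FPKM to 2.82 and 2.74 FPKM. Prrx1 was the lower one, at 3.49 and 3.23 FPKM untreated and 2.40 and 1.62 FPKM with Dox. Col1a1 and Acta2 overlapped between the groups. Of the 2 untested genes, Dcn was lower and Pdgfrb higher with Dox. The list, mostly Acta2 (55.21 to 80.69 FPKM over the 4 libraries), summed to 88.52 to 93.22 FPKM untreated and 77.07 to 102.4 FPKM with Dox. Of 8 surface epithelium markers 6 were tested and 0 passed in limma, with 1 lower at an unadjusted p below 0.05. Their sums of 58.59 to 65.95 FPKM untreated and 58.11 to 66.95 FPKM with Dox overlapped. All 6 pluripotency markers were tested and 0 passed, with 1 lower at an unadjusted p below 0.05, and sums of 66.52 to 70.11 and 50.48 to 74.51 FPKM.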

How the data were processed

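The authors deposited 1 table of FPKM values with a column for each of the 4 libraries, not pooled. The submitters' processing notes name STAR, Cuffdiff and the mm10 build, without roles or versions; the annotation release and the use of strand are not given in the sources used here. Values were used as deposited, as log2(FPKM + 1), for genes whose mean over the libraries reached 1 FPKM. The fit used limma 3.58.1 in R 4.3.3 with an intensity trend, on all 4 libraries and no covariate, two-sided, adjusted over all tested genes. The pseudocount understates the change of low genes. With 2 libraries a group, p-values rest on variance shared across genes (3.5 prior degrees of freedom). The fit was tested on simulated data with independent noise and changes larger than those of any member. That test does not cover changes of the members' size. Other pseudocounts, filters, scalings, variance models, a replicate block, the omission of each library and, added after the data were seen, removal of trends with length and GC were tried.

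Depth was fitted from the steps of low FPKM values of genes with 1 transcript of 450 to 1200 nt in GENCODE M21 (GRCm38, the assembly of mm10). With it, 87.2% to 88.1% of those values lay within 0.15 of a whole fragment, where 30% would by chance. Fragment numbers behind a gene assume its longest transcript and are approximate. Positions and exon overlaps come from the same annotation. Where exons overlap on opposite strands, reads cannot be assigned to one gene unless strand was used. Strand does not separate exons that overlap on the same strand.

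The members and lists were chosen with earlier results of these data known. Named genes are all members, 7 cassette genes, Ccn1, Ccn2 and Ankrd1, up to 3 called genes per list and direction, and Rax and Mettl3 as context. No member was called, so the genes nearest in pattern to a called member, which the rule also asked for, do not arise. The labels do not say whether libraries with the same replicate number shared a culture. Across genes the deviations of same-numbered libraries correlated at -0.0435, which cannot settle that question. The summed level of the retina marker list is not reported here.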

Additional observations from a re-analysis of the deposited data

How the results depend on the processing

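In the limma fit and in 14 other settings of it, 0 members passed the threshold. After removal of each library's trend with length and GC, a setting chosen after the data were seen, 3 members passed (Tead2, Amotl1 and Amotl2). The same setting called 1838 genes in all against 1297, or 13.2% of all tested genes against 9.31%. It gave 8 called targets against 4, with the members Amotl1 and Amotl2 among the 8. It also gave 4 junction and polarity genes against 2, 2 core kinase genes against 1, and 1 turnover gene against 0. Without the filter on low values, which tests more genes, 745 genes were called in all and 0 junction and polarity genes. With a minimum of 5 FPKM the counts were 821 in all, 1 junction and polarity gene and 2 targets, from fewer genes tested. Robust estimation called 1 turnover gene, Stk26, and the cause was not tested. Leaving out 1 library at a time, which leaves a lone sample assumed to vary like the other group, gave 593 to 697 calls against 1297 and 0 to 2 junction and polarity genes. A replicate block by library number gave 1134 called genes, and the block changed no call of a named gene.

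Signs turned for genes near 0 that had not passed. Across the fits without 1 library, Yap1 ranged from -0.130 to 0.0436, Ajuba from -0.171 to 0.0525, Stk4 from -0.0782 to 0.107, Sav1 from -0.131 to 0.151, Lats1 from -0.106 to 0.0164, Nf2 from -0.2 to 0.0352 and Ccn1 from -0.196 to 0.0749. Stk4 also turned with quantile normalization (-0.0013) and Sav1 after removal of the length and GC trends (-0.0073). Of 386 values under the alternatives, from the 26 tested genes that the naming rule gives (Rax and Mettl3 included, Tead4 and Ankrd1 untested), 364 kept their direction and their side of the threshold.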
